A study of Mus musculus with 3 samples.

Results

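The motile cilia genes of ependymal cells were followed here as a list of 36 gene names, read from transcript-level count tables of isolated mouse brain vessels. For each gene the transcript row with the largest count over all libraries was taken, and 35 of the 36 names had a row among the 29917 genes of the tables. Rsph4a, a radial spoke gene of the list, was not analysed here. Of the 35 genes, 34 reached 50 normalized counts in 1 or both libraries of each comparison with Cx30-/-, and 32 reached 50 in every library. Spag17 did not reach the minimum, with raw counts of 10 in C57BL6 WT, 8 in C57BL6-BALB/c WT and 15 in Cx30-/-. Dnah12 was under 50 in both wild types and Cfap43 in C57BL6 WT, and each passed there only through the higher Cx30-/- library, so a difference was built into their passing.

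There were 3 libraries, 1 per group, each from polyadenylated RNA of brain vessels of mice aged 3 months. One group was wild type on C57BL6 (C57BL6 WT), another was wild type on C57BL6-BALB/c (C57BL6-BALB/c WT), and the other one was deleted for Cx30 (Cx30-/-), the gap junction protein connexin 30 encoded by Gjb6. The labels give C57BL6 as the background of the Cx30-/- mice, while the methods of the study give a mixed C57BL6/Balbc background, hence the 2 wild-type comparisons. The deletion is in all cells of the animal and not restricted to the brain. Each library pooled the vessels of 3 male mice, so that no spread between animals was measured, and genotype, background and vessel preparation cannot be told apart. The deposited counts summed to between 50375426 and 60725557 per library. Gjb6 itself had 2531 normalized counts for C57BL6 WT, 2426 for C57BL6-BALB/c WT and 101 for Cx30-/-, as the labels give it.

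Motile cilia are beating projections of the cell surface. Their core, the axoneme, is a ring of microtubule doublets around a central pair of microtubules. Dynein arms on the doublets make them slide, radial spokes and the central pair set the beat, and a molecular ruler fixes the spacing of the arms and spokes. Tektins lie inside the doublet wall, and a set of cytoplasmic factors assembles the dyneins before they enter the cilium. Foxj1, a forkhead protein, and RFX proteins switch on these genes in multiciliated cells. Ependymal cells line the brain ventricles and carry tufts of such cilia, which move cerebrospinal fluid. The tables hold no values for single cells, so the cells that gave these reads were not identified, and in bulk RNA more cells of a type and more RNA per cell cannot be told apart.

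Promoters are shown first, since the listed genes share regulators of the RFX class. A window of 250 bases before to 50 bases after the start site was present in the RefSeq promoter table (GRCm38.p6) for 30 of the 35 genes. Foxj1, Cfap65, Dnah3, Rsph1 and Cfap54 were not in it. The 3 sets of letters that were searched on both strands are GTTGCC, a single RFX-type word, the pair GTTNCC followed after 0 to 3 bases by GGNAAC, and the forkhead word GTAAACA. A pair whose first or second part reads GTTGCC or GGCAAC also counts as a match to the single word. Shares are by gene, and a gene with several start sites counted as a match if any of its windows matched. The RFX-type word was found for 12 of the 30 genes (40.0%), against 14.1% of all 27025 genes with a promoter searched and 14.4% of the 17491 protein-coding ones. The pair was found for 1 of 30 (3.33%), against 0.936% of all genes searched. The forkhead word was in 2 of 30 (6.67%), those of Ak7 and Cfap43, against 4.05%. The median GC content was 55% in the listed promoters and 56.3% in those of protein-coding genes. The RFX-type word was also in 10 of 17 promoters (58.8%) of a list of genes of primary cilia and intraflagellar transport, which were not higher in Cx30-/- as a list, and in 43 of 80 (53.8%) of a wider list of motile cilia genes. A match is only a match of letters, and no binding was measured in these vessels.

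Of the promoters with a match to the RFX-type word or the pair, those of the 5 genes with the highest level per kilobase are printed, 5′ to 3′ on the strand of the gene, with the matched letters in capitals. They lie on GRCm38 at chr9:107547054-107547353 on the plus strand for Zmynd10, chr7:139683766-139684065 on the minus strand for Cfap46, chr11:72361833-72362132 on the minus strand for Tekt1, chr16:44394549-44394848 on the plus strand for Cfap44 and chr9:22002585-22002884 on the minus strand for Ccdc151. Capitals in the first 4 mark GTTGCC or its reverse complement, and in Ccdc151 they mark the pair.
Zmynd10: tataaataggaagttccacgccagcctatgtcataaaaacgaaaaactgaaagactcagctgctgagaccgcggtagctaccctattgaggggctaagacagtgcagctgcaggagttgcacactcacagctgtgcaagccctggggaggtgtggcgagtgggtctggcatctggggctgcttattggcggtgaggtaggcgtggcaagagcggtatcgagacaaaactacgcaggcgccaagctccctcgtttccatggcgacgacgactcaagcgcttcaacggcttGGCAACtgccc
Cfap46: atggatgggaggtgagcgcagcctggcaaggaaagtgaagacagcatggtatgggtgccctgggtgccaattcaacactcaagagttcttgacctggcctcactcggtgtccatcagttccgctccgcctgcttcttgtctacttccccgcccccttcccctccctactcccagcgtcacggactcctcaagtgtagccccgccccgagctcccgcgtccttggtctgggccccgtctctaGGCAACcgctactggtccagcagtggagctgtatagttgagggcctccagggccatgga
Tekt1: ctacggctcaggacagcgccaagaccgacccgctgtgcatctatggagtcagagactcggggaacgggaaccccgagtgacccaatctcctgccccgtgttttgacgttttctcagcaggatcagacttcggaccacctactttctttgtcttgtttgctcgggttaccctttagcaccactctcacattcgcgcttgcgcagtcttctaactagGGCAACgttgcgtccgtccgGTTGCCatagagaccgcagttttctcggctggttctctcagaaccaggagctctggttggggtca
Cfap44: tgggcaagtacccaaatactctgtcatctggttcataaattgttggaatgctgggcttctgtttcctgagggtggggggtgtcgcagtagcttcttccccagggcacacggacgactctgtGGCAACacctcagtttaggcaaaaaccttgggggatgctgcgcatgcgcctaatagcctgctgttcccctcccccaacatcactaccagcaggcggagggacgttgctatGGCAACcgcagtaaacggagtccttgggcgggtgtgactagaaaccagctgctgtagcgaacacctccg
Ccdc151: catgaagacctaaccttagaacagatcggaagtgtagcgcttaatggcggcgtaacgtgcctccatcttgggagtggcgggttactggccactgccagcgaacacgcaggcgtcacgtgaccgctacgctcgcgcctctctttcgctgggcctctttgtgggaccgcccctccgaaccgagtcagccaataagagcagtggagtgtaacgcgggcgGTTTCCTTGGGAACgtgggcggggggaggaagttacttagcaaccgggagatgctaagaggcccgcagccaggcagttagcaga
The first match began 39 bases after the start site in Zmynd10, 9 before it in Cfap46, 35 before it in Tekt1, 129 before it in Cfap44 and 34 before it in Ccdc151. Over the 13 listed genes with either match the median log2 ratio of normalized counts was 0.74 against C57BL6 WT and 0.69 against C57BL6-BALB/c WT, and over the 17 without it the medians were 0.78 and 0.76. No count minimum was applied here, so the 17 include Spag17.

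The first comparison asked how the listed genes stood in Cx30-/- vessels beside vessels of each wild type. Motile cilia genes were as a set at a higher level in the Cx30-/- library than in both wild-type libraries. Their summed level was 7627 normalized counts per kilobase of transcript in C57BL6 WT, 7971 in C57BL6-BALB/c WT and 12625 in Cx30-/-. The sums of the wild-type libraries lay 0.06 apart on the log2 scale, and the Cx30-/- sum lay 0.73 and 0.66 above them. The listed rows held counts equal to 0.13% of the authors' library total in C57BL6 WT, 0.132% in C57BL6-BALB/c WT and 0.23% in Cx30-/-. With 1 library per group these ratios carry no test, and the exact (Clopper-Pearson) 95% intervals given with the ratios cover the sampling of reads only.

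The ratio was at least 2 for 10 of the 34 genes against C57BL6 WT, where 1.42% of all 14776 genes with enough counts were at least 2-fold higher. Against C57BL6-BALB/c WT it was at least 2 for 9 of the 34, where 3.96% of 14891 genes were. No listed gene was 2-fold lower in Cx30-/-, against 1.26% of all genes in the first comparison and 4.73% in the second. The 7 genes at least 2-fold higher than in both wild types were Dnah3, Dnah10, Dnah12, Cfap44, Cfap46, Cfap65 and Ak7, against 0.742% of the 14688 genes with enough counts in both comparisons. Dnah12 entered these counts only through its Cx30-/- library. With 50 normalized counts required in both libraries compared, 8 genes were 2-fold higher against C57BL6 WT (0.767% of all genes), 8 against C57BL6-BALB/c WT (2.89%) and 6 against both (0.393%), Dnah12 no longer among the latter. At any size, 31 of the 34 were higher in Cx30-/- than in both wild types, where 37.1% of all genes were. The comparisons share the Cx30-/- library and are not independent of each other. Between the wild types none of the 33 listed genes with enough counts differed 2-fold, Dnah12 being left out there by the minimum with a ratio of 2.06, against 1.41% of all genes higher and 2.02% lower in C57BL6-BALB/c WT.

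The median log2 ratio of the 34 genes was 0.76 against C57BL6 WT and 0.70 against C57BL6-BALB/c WT, and that of the 33 with enough counts in the wild types was 0.05 between those, while the median of all genes lay within 0.0046 of 0 in each comparison. Single genes ran from -0.11 for Rsph9 to 2.11 for Dnah12 against C57BL6 WT, and from -0.66 for Rfx3 to 1.55 for Dnah10 against C57BL6-BALB/c WT. Of the 34 genes, 29 had intervals above a ratio of 1 in both comparisons, where 18.6% of all genes had. Between the wild types the interval lay above 1 for 14 of the 33 genes (33.2% of all genes) and below 1 for 6 (31.2%).

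**Figure D1:**
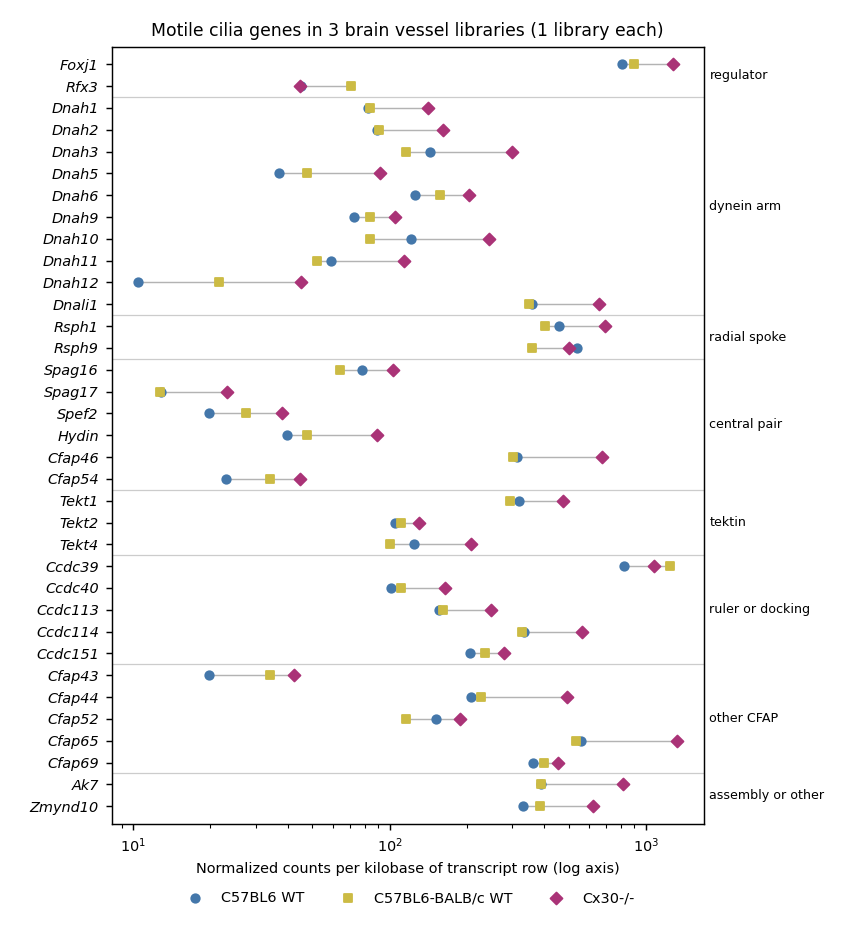
Level of each of the 35 listed genes in the 3 libraries, in normalized counts per kilobase of transcript row on a log axis, 1 point per library, grouped by role. The Cx30-/- point (diamond) is the rightmost in 32 of the 35 genes, the exceptions being Rfx3, Rsph9 and Ccdc39.

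Of the regulators, Foxj1, the forkhead factor of the motile cilia programme (chromosome 11, 116330704 to 116335399), had 2108 normalized counts for C57BL6 WT, 2348 for C57BL6-BALB/c WT and 3336 for Cx30-/-. It was highest in Cx30-/-, with log2 ratios of 0.66 (0.59 to 0.74) over C57BL6 WT and 0.51 (0.43 to 0.59) over C57BL6-BALB/c WT, and the wild types lay 0.16 apart. Per kilobase it was next to the highest of the list, at 990 normalized counts per kilobase over the libraries, at percentile 90.4 of all genes with enough counts. Rfx3, an RFX factor that acts in primary as well as motile cilia, had 123 normalized counts for C57BL6 WT, 193 for C57BL6-BALB/c WT and 123 for Cx30-/-. It was the exception among the regulators, level with C57BL6 WT (log2 ratio -0.0045, -0.37 to 0.36) and lower than C57BL6-BALB/c WT (log2 ratio -0.66, -1.0 to -0.31). The row of Rfx3 was 2737 bases long of a transcript of 8988, so its counts stand for a part of the gene.

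All 10 dynein arm genes were higher in Cx30-/- than in both wild types, with a median log2 ratio of 0.91 against C57BL6 WT and 0.93 against C57BL6-BALB/c WT. Dynein heavy chains are the motors of the arms. Dnah10, an inner arm heavy chain (chromosome 5, 124725085 to 124834308), had 1603 normalized counts for C57BL6 WT, 1111 for C57BL6-BALB/c WT and 3244 for Cx30-/-, and log2 ratios of 1.02 (0.93 to 1.1) and 1.55 (1.44 to 1.65). Dnah3, another inner arm heavy chain (chromosome 7, 119922671 to 120095280), had 467, 377 and 977 normalized counts by the order of these libraries, with log2 ratios of 1.06 (0.91 to 1.22) and 1.37 (1.19 to 1.56). Both were lower in C57BL6-BALB/c WT than in C57BL6 WT, by 0.53 and 0.31 on the log2 scale, while Cx30-/- was above either. The Dnah3 row was 3247 bases long of a transcript of 12252. Of the exon bases of the whole transcript, 12.3% are shared with Lyrm1, and how many of these lie in the counted row was not determined. The library kit keeps no strand, so reads on shared bases cannot be assigned to one gene.

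Dnah12, also an inner arm heavy chain (chromosome 14, 26693274 to 26891703), had raw counts of only 27 in C57BL6 WT, 45 in C57BL6-BALB/c WT and 97 in Cx30-/-. Its log2 ratio of 2.11 (1.48 to 2.78) against C57BL6 WT was the highest of the list and the least exact of the 7, and that against C57BL6-BALB/c WT was 1.07 (0.54 to 1.61). Its row covered 2251 of 12009 transcript bases, and the wild types themselves lay 1.04 (0.32 to 1.79) apart. Dnah5, an outer arm heavy chain, had 577 normalized counts for C57BL6 WT, 744 for C57BL6-BALB/c WT and 1428 for Cx30-/-. With log2 ratios of 1.31 (1.17 to 1.44) and 0.94 (0.81 to 1.07) it passed 2-fold against C57BL6 WT and was the nearest gene below that line against C57BL6-BALB/c WT. Dnah11, an outer arm heavy chain as well, had 830, 736 and 1603 normalized counts, with log2 ratios of 0.95 (0.83 to 1.07) and 1.12 (0.99 to 1.26), and thus passed only against C57BL6-BALB/c WT.

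The remaining heavy chains had smaller ratios. Dnah1 had 1072 normalized counts for C57BL6 WT, 1086 for C57BL6-BALB/c WT and 1836 for Cx30-/-, and Dnah2 had 1224, 1244 and 2220. For these 2 inner arm chains the wild types lay within 0.03 of each other on the log2 scale, and Cx30-/- lay between 0.76 and 0.86 above them. Dnah6, of the inner arm too, had 1567, 1964 and 2560 normalized counts, and the outer arm chain Dnah9 had 1003, 1155 and 1442. Both were intermediate in C57BL6-BALB/c WT, and their log2 ratios were 0.71 and 0.52 against C57BL6 WT and 0.38 and 0.32 against C57BL6-BALB/c WT. Dnali1, a light intermediate chain of the inner arm, had 767, 745 and 1406 normalized counts, with log2 ratios of 0.87 (0.75 to 1.00) and 0.92 (0.78 to 1.05), and was the dynein gene of the highest level per kilobase, at 456 over the libraries.

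**Figure D2:**
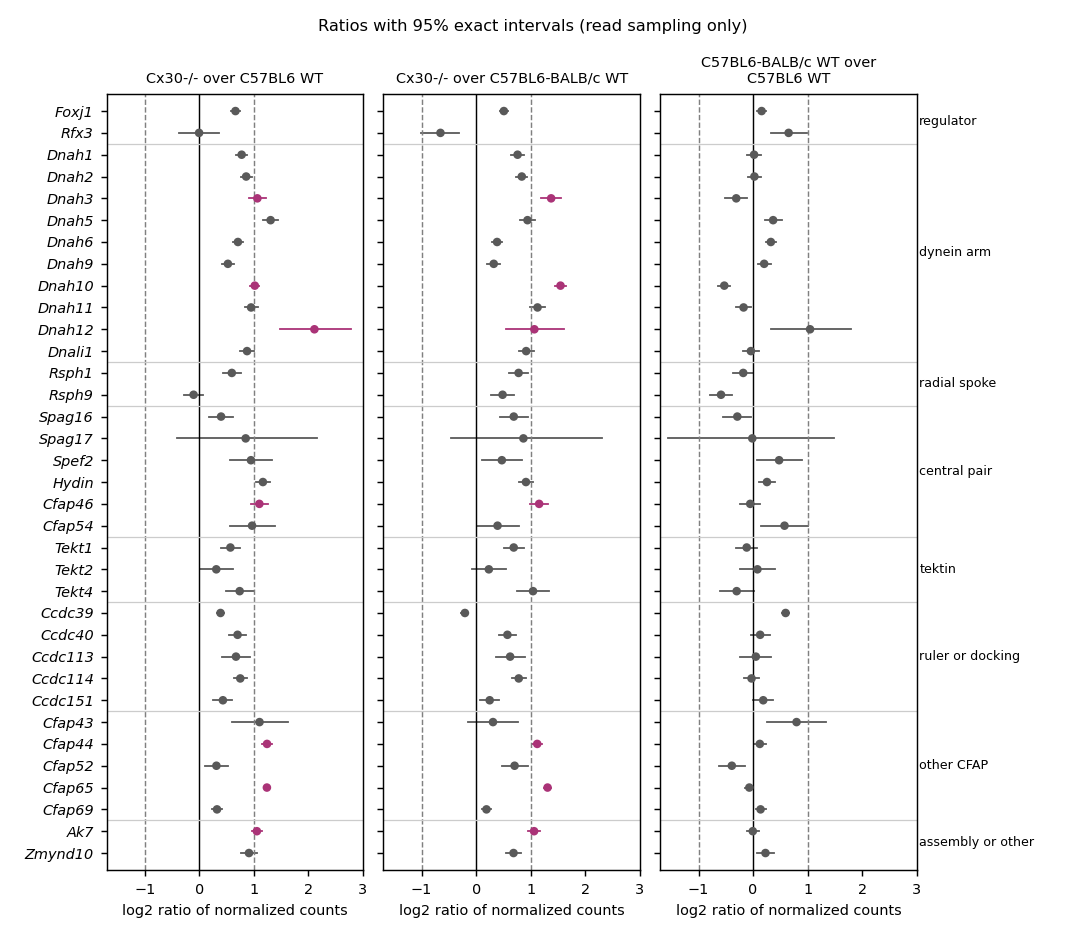
Log2 ratios of normalized counts of the 35 listed genes in each pair of libraries, with exact 95% intervals for the sampling of reads as horizontal lines. Coloured points mark the 7 genes at least 2-fold higher in Cx30-/- than in both wild types, dashed lines stand at 2-fold, and the points of the right panel, between the wild types, lie on both sides of 0.

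Of the radial spoke genes, Rsph1, a spoke head protein, had 508 normalized counts for C57BL6 WT, 448 for C57BL6-BALB/c WT and 768 for Cx30-/-, and was highest in Cx30-/- with log2 ratios of 0.60 (0.44 to 0.76) and 0.78 (0.60 to 0.95). Rsph9, of the same spoke head, had 521, 347 and 485 normalized counts. It did not follow, being close to C57BL6 WT (log2 ratio -0.11, -0.28 to 0.07) and above C57BL6-BALB/c WT (0.48, 0.27 to 0.69), with the 2 wild types 0.59 apart.

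The central pair genes with enough counts were all 5 higher in Cx30-/- than in both wild types, with median log2 ratios of 0.97 and 0.69. Cfap46, of a projection of the central pair (chromosome 7, 139600951 to 139683817), had 479 normalized counts for C57BL6 WT, 461 for C57BL6-BALB/c WT and 1026 for Cx30-/-, with log2 ratios of 1.1 (0.95 to 1.25) and 1.15 (0.99 to 1.32). Its row, however, is a retained-intron transcript of 1518 bases. The longest row of Cfap46 gave a log2 ratio of 1.12 against C57BL6 WT but 0.27 against C57BL6-BALB/c WT, so that the call against both wild types rests on the choice of the row. Hydin, a large central pair protein whose loss causes hydrocephalus in mice, had 630 normalized counts for C57BL6 WT, 751 for C57BL6-BALB/c WT and 1412 for Cx30-/-. It was highest in Cx30-/-, at log2 ratios of 1.17 (1.03 to 1.30) and 0.91 (0.78 to 1.05), past 2-fold against C57BL6 WT alone.

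Spag16, a structural protein of the central pair, had 279 normalized counts for C57BL6 WT, 228 for C57BL6-BALB/c WT and 367 for Cx30-/-. Spef2, of the same apparatus, had 83.8, 117 and 162, and Cfap54 had 72.5, 108 and 142. All were highest in Cx30-/-, and Cfap54, with a log2 ratio of 0.97 (0.56 to 1.38), was the nearest below 2-fold against C57BL6 WT. The row of Cfap54 is annotated as a target of nonsense-mediated decay and that of Spag17 as a retained intron, so neither stands for the coding transcript.

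The 3 tektins were higher in Cx30-/- than in both wild types. Tekt1 had 449 normalized counts for C57BL6 WT, 414 for C57BL6-BALB/c WT and 666 for Cx30-/-, and Tekt4 had 190, 154 and 318. Tekt4 had log2 ratios of 0.74 (0.48 to 1.00) and 1.04 (0.75 to 1.34) and was the gene just inside the 2-fold line against C57BL6-BALB/c WT. Tekt2 had 162, 171 and 200 normalized counts, and its interval against C57BL6-BALB/c WT (log2 ratio 0.23, -0.08 to 0.54) included no difference. An overlapping gene, Gm12945, shares 25.7% of the exon bases of the Tekt2 row.

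Ccdc39 and Ccdc40 form the ruler that spaces dynein arms and spokes, and their counts did not run together. Ccdc39 had 2952 normalized counts for C57BL6 WT, 4462 for C57BL6-BALB/c WT and 3865 for Cx30-/-, and per kilobase it was the highest of the list, at 1043 over the libraries. It was highest in C57BL6-BALB/c WT, with log2 ratios of 0.39 (0.32 to 0.46) over C57BL6 WT and -0.21 (-0.27 to -0.14) over C57BL6-BALB/c WT. The neighbouring gene Ttc14, looked at after these values were seen, shares 34.2% of the exon bases of the Ccdc39 row, and had 11625, 17634 and 12169 normalized counts. Between the wild types Ttc14 and Ccdc39 both differed by 0.60 on the log2 scale, and the part of shared reads in the Ccdc39 count was not tested. Ccdc40, with no shared exon bases, had 505, 552 and 820 normalized counts and was higher in Cx30-/- than in either wild type (log2 ratios 0.70, 0.54 to 0.86, and 0.57, 0.41 to 0.74).

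Ccdc114 and Ccdc151 dock outer dynein arms to the doublets. Ccdc114 had 820 normalized counts for C57BL6 WT, 804 for C57BL6-BALB/c WT and 1380 for Cx30-/-, with log2 ratios of 0.75 (0.63 to 0.87) and 0.78 (0.65 to 0.91). Ccdc151 had 454, 516 and 613, and Ccdc113, a coiled-coil protein of the axoneme, had 198, 205 and 316. All were highest in Cx30-/-, Ccdc151 by the least, at log2 ratios of 0.43 and 0.25.

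Of the other cilia and flagella associated proteins, Cfap65 (chromosome 1, 74902071 to 74935599) stood out by its counts, with 3200 normalized counts for C57BL6 WT, 3050 for C57BL6-BALB/c WT and 7551 for Cx30-/-. Its log2 ratios were 1.24 (1.18 to 1.30) and 1.31 (1.24 to 1.37), while the wild types lay 0.07 apart. Cfap44 (chromosome 16, 44394796 to 44482428) had 1292, 1407 and 3055, with log2 ratios of 1.24 (1.15 to 1.33) and 1.12 (1.02 to 1.21). Cfap65 and Cfap44 were the genes whose interval lay wholly above 2-fold against both wild types, out of 5 such genes against C57BL6 WT (0.541% of all genes) and 4 against C57BL6-BALB/c WT (1.54%). All 7 rows of Cfap44, which share exons and of which 1 was under 10 normalized counts throughout, had log2 ratios over 0.69 in both comparisons, and the 2 retained-intron rows of Cfap65 had smaller ratios than its coding row, between 0.58 and 1.06.

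Cfap43, on a retained-intron row, had 45.4 normalized counts for C57BL6 WT, 78.8 for C57BL6-BALB/c WT and 97.6 for Cx30-/-, with log2 ratios of 1.1 (0.60 to 1.62) and 0.31 (-0.15 to 0.77). Cfap52 had 333, 254 and 413, and Cfap69 had 1804, 1983 and 2259. These were highest in Cx30-/- too, and the ratios of Cfap69, 0.32 and 0.19, were the smallest of this group against C57BL6-BALB/c WT.

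Ak7, an adenylate kinase of the cilium that handles nucleotides used by the dyneins (chromosome 12, 105705976 to 105782447), had 1210 normalized counts for C57BL6 WT, 1205 for C57BL6-BALB/c WT and 2515 for Cx30-/-. The wild types were thus alike within counting error and Cx30-/- lay at log2 ratios of 1.05 (0.96 to 1.15) and 1.06 (0.96 to 1.16) above them. Zmynd10, a cytoplasmic factor needed to assemble dynein arms, had 582, 680 and 1093, highest in Cx30-/- at log2 ratios of 0.91 (0.77 to 1.05) and 0.68 (0.54 to 0.83).

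The listed genes spanned most of the range of levels per kilobase. The median of all genes with enough counts was 256 normalized counts per kilobase over the libraries, and 13 of the 35 listed genes lay above it and 22 below. Ccdc39, Foxj1, Cfap65 (803), Ak7 (531), Rsph1 (518), Rsph9 (467), Dnali1 (456), Zmynd10 (447), Cfap46 (432) and Ccdc114 (408) were the highest of the list, and Spag17 (16.3), Dnah12 (25.8) and Spef2 (28.4) the lowest. The place of Cfap46 holds for its retained-intron row of 1518 bases only. A coding row of Cfap46, of 4316 bases, had 292 normalized counts for C57BL6 WT, 527 for C57BL6-BALB/c WT and 633 for Cx30-/-. The heavy chains with long rows, Dnah5, Dnah11, Dnah9, Dnah1, Dnah2, Dnah10 and Dnah6, lay between percentiles 12.5 and 34.8 of all genes. Ccdc39 and Foxj1 were not separated beyond the difference between libraries, since their order was reversed in Cx30-/-, at 1072 and 1272 normalized counts per kilobase.

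The tables also give how many bases of each row had no read. The median share of covered bases over the 35 genes was 92.5% in C57BL6 WT, 93.0% in C57BL6-BALB/c WT and 93.9% in Cx30-/-, and it was highest in Cx30-/- for 20 of the 34 genes with enough counts, where it was for 27.0% of all genes. The covered share comes from the same reads as the counts and is not a result apart from them. In Hydin it was 56.4%, 68.4% and 79.0% in the same order, in Dnah5 54.6%, 59.7% and 73.4%, and in Dnah11 58.7%, 62.7% and 74.7%. In Dnah9, a row of like length, it was 71.9%, 75.1% and 74.9%, so that not every long row was most covered in Cx30-/-. Of all 93 rows of the listed genes, 82 reached 50 normalized counts in at least 1 library, and 67 of those 82 were higher in Cx30-/- than in both wild types. The share over the rows of all genes was not counted. Rows of a gene share reads and are not independent.

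**Figure D3:**
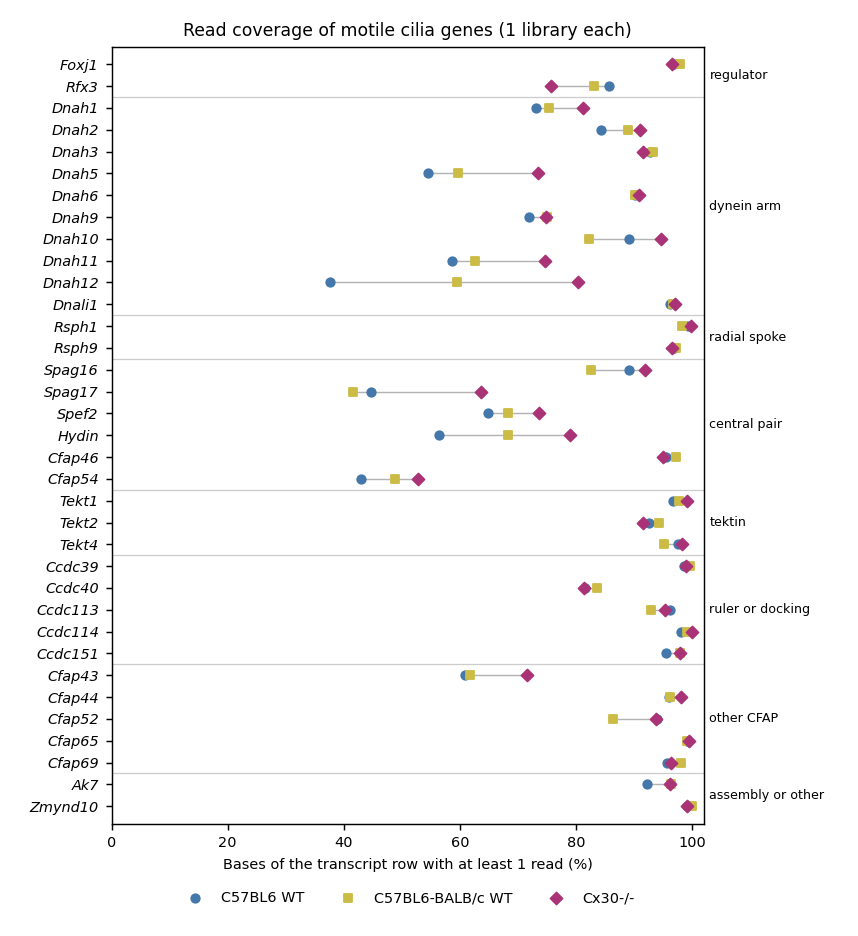
Share of the bases of each listed gene's row with at least 1 read, in percent, 1 point per library, grouped by role. The largest spread between libraries is in Dnah12, from 37.7% in C57BL6 WT to 80.3% in Cx30-/-.

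A wider list of 96 motile cilia genes with no listed gene among them was read in the same way, and 79 had enough counts. Of these, 68 were higher in Cx30-/- than in both wild types and 4 lower than in both, with median log2 ratios of 0.55 and 0.58, and -0.05 between the wild types. Of all 14688 genes with enough counts, 37.1% were higher than in both and 5375 genes lower. The 6 genes at least 2-fold higher than in both were Ccdc78, Tekt3, Ccdc180, Fam216b, Odf3b and 1700012B09Rik, where 0.742% of all genes were. Tekt3, with 27.9 normalized counts for C57BL6 WT, 32.4 for C57BL6-BALB/c WT and 66.1 for Cx30-/-, met the minimum only through Cx30-/-. A difference was thus built into its passing. Odf3b, of the outer dense fibre family, had 784 normalized counts for C57BL6 WT, 607 for C57BL6-BALB/c WT and 2155 for Cx30-/-, at log2 ratios of 1.46 and 1.83. Ccdc78, which takes part in making many centrioles, had 338, 237 and 740. Both were highest in Cx30-/- and lowest in C57BL6-BALB/c WT.

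By sub-list, the genes of spokes, central pair and nexin links were higher than in both wild types for 31 of 35, where 37.1% of all genes were. Among them was Lrrc23, a spoke protein, with 1358 normalized counts for C57BL6 WT, 1208 for C57BL6-BALB/c WT and 2280 for Cx30-/-. Other transcripts known from ependymal cilia were higher for 21 of 21, Vwa3a and Tmem212 with log2 ratios of 0.76 and 0.60 against C57BL6 WT and 0.96 and 0.98 against C57BL6-BALB/c WT. Of these transcripts Spata17, with 40.2, 48.6 and 69.2 normalized counts, met the minimum only through Cx30-/-. Of the spoke list, Rsph14 against C57BL6 WT and Efhc2 and Cfap58 against C57BL6-BALB/c WT met it only in that way. A difference was built into the passing of these genes too. Further dynein arm genes were higher for 5 of 8 and dynein assembly genes for 6 of 8. Of the transcription and centriole programme, which acts upstream of the axoneme genes, 5 of 7 were higher, Rfx2 with 560, 536 and 936 normalized counts among them. Gmnc, a geminin relative that starts the multiciliated fate, was lower, with 239, 221 and 198, and Ccno, a cyclin family gene of centriole formation, was too, with 59.4, 50.8 and 45.1. The other genes lower than in both were Spag1, a dynein assembly factor, and Cfap300, which like Ccno was named after its values were seen. The interval of Cfap300 against C57BL6 WT (-0.41 to 0.08) also included no difference.

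Genes of primary cilia and intraflagellar transport, most of which nearly all ciliated cells use, did not share the difference. Of 19 with enough counts, 4 were higher in Cx30-/- than in both wild types and 8 lower, with median log2 ratios of 0.05 and -0.19. Of all 14688 genes with enough counts, 5454 (37.1%) were higher than in both and 5375 lower. Kif3a, a motor of intraflagellar transport, had 4143 normalized counts for C57BL6 WT, 5135 for C57BL6-BALB/c WT and 3363 for Cx30-/-. Ift172, of the transport particle, had 2728, 3445 and 2818.

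**Figure D4:**
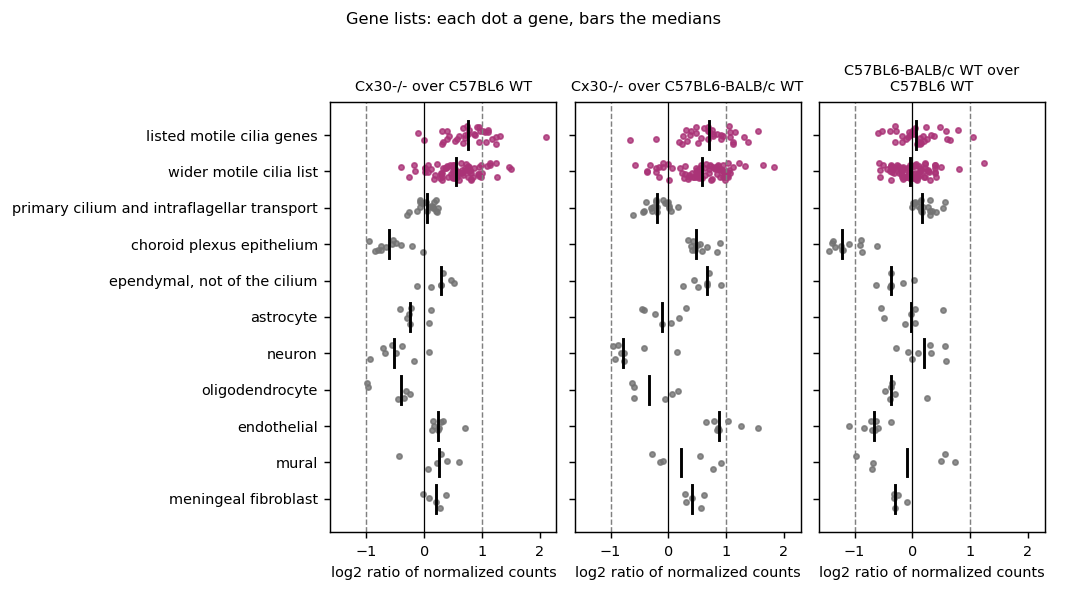
Log2 ratios of normalized counts for the listed genes, the wider motile cilia list and 9 other lists in each pair of libraries, with 1 dot per gene past the count minimum and a bar at the median of the list. The listed genes and the wider motile cilia list have medians of 0.55 to 0.76 over both wild types, while the choroid plexus list has -0.61 against C57BL6 WT and 0.49 against C57BL6-BALB/c WT.

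Markers of other cells moved with the libraries as well, and their part in the ratios of the cilia genes was not tested. Ependymal genes outside the cilium were higher in Cx30-/- than in both wild types for 6 of 7, where 37.1% of all genes were, with medians of 0.30 and 0.66. Among these ependymal genes was Rarres2, with 2259 normalized counts for C57BL6 WT, 1738 for C57BL6-BALB/c WT and 2828 for Cx30-/-. Some of them, such as Tm4sf1, S100b and Nnat, are also made by other brain cells. All 12 choroid plexus epithelium genes, of cells that border the ependyma, were lower in Cx30-/- than in C57BL6 WT and higher than in C57BL6-BALB/c WT. Their summed level was 229470, 88589 and 119700 normalized counts per kilobase, and their median between the wild types was -1.21, where the listed cilia genes had 0.05. Ttr, the transthyretin gene that dominates choroid plexus RNA, had 137640, 52930 and 71366 normalized counts.

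All 8 endothelial genes were higher in Cx30-/- than in both wild types, with medians of 0.24 and 0.87. Cldn5, the main claudin of the barrier, had 25826 normalized counts for C57BL6 WT, 12122 for C57BL6-BALB/c WT and 29047 for Cx30-/-, so the vessel markers that define the tissue were present in each library. Of all 14688 genes with enough counts, 37.1% were higher than in both wild types and 5375 genes lower. Mural genes had 2 of 6 higher than in both, close to the share of all genes, and meningeal fibroblast genes 4 of 5. Their medians were 0.25 and 0.22, and 0.21 and 0.40. Neuron genes were lower than in both for 7 of 8, with medians of -0.53 and -0.79, astrocyte genes for 3 of 7 (-0.25 and -0.11) and oligodendrocyte genes for 4 of 6 (-0.40 and -0.33). Against C57BL6 WT, the median of the listed cilia genes (0.76) was above that of each of these lists, and against C57BL6-BALB/c WT the endothelial median (0.87) was above theirs (0.70).

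A fit across all genes was possible only with both wild-type libraries taken as 1 group, whose spread then includes their difference in background. In edgeR's quasi-likelihood test with Benjamini-Hochberg adjustment, 0 of the 35 listed genes passed an adjusted p of 0.05, and over all genes 9 of 17576 (0.0512%) did. The lowest adjusted p of the list was 0.164, for Cfap44 and Dnah10. At an unadjusted p under 0.05 there were 19 of 35, where 8.69% of all genes were, and 34 of 35 had a fold change above 0 on the log2 scale. DESeq2 also called 0 of the 35, with 14 at an unadjusted p under 0.05 (3.77% of all genes). Without the filter on low counts edgeR called 8 of the 35, and 135 of 22471 genes (0.601%).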

How the data were processed

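RNA of brain vessels was sequenced as 1 library per group, from pools of 3 mice. Per the labels, base calling used CASAVA 1.8.2 and mapping Bowtie on mm10. The authors ran Eoulsan, removed reads with more than 1 match and counted alignments on exons per Ensembl transcript, so a read on a shared exon counted for each transcript. Counts are raw, as deposited. The deposited fraction (count over 1 library total) gave the authors' totals, of 20654144 to 24830975, and the deposited number of bases not covered gave the covered shares. Deposited positions run past the end of mm10 chromosome 1, so transcript IDs were matched to GENCODE M21 on GRCm38, whose coordinates are printed. Of 82813 rows, 69375 (83.8%) matched and stood for 29917 genes. The other rows were left out.

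The members and gene lists were chosen with earlier results of these data known. A gene was represented by its row of largest total count and scaled by median-of-ratios size factors (1.15 for C57BL6 WT, 0.926 for C57BL6-BALB/c WT, 0.953 for Cx30-/-). A gene was compared where 1 or both libraries reached 50 normalized counts, and called at a 2-fold ratio. Intervals are exact binomial 95% intervals of the 2 counts. All listed genes are named. Ratios with intervals are given at least for the regulators, the 10 highest levels per kilobase, the called genes and those next to the 2-fold line, and of other lists examples come from the 5 highest genes and those called against both wild types. In the wider list, genes that met the minimum only through Cx30-/- are named as well. Fits used edgeR 4.0.16 and DESeq2 1.42.0 in R 4.3.3, tested on simulated data, with scipy 1.17.1 for intervals. Alternatives were other scalings, rows, minimums and thresholds.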

Additional observations from a re-analysis of the deposited data

How the results depend on the processing

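With 1 pool per group, no difference has a check on spread between animals. Of 420 single-gene ratios under other scalings, rows and minimums, 414 stayed within the interval of the reported ratio, 6 moved outside it and 0 turned direction. Those were Cfap46 against C57BL6-BALB/c WT (log2 ratio 0.27 on the longest row and 0.46 summed over rows), Cfap65 against both summed over rows (1.17 and 1.08) and, scaled by the authors' totals, Cfap65 (1.38) and Ccdc39 (-0.13) against C57BL6-BALB/c WT. Of 141 summary values, 126 were stable by their criterion. At a ratio of 1.5 in place of 2, 24 genes were higher against C57BL6 WT, 21 higher and 1 lower against C57BL6-BALB/c WT and 18 higher against both, and between the wild types 3 were higher and 1 lower. Of all genes, 4.91% were 1.5-fold higher against C57BL6 WT, 14.1% against C57BL6-BALB/c WT and 7.34% between the wild types. At a ratio of 4 the counts were 1, 0 and 0. With no count minimum 1 gene, Dnah12, was 2-fold higher between the wild types. Leaving out the genes that share exon bases with another gene, chosen after seeing the data, left 20 genes, of which 5, 5 and 4 were 2-fold higher against C57BL6 WT, C57BL6-BALB/c WT and both, and 17 higher at any size. Without the filter on low counts edgeR called 8 genes, and under the other settings of that fit 0, with a lowest adjusted p between 0.0685 and 0.146. No paired analysis was possible because each group has 1 library.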
